A study of Mus musculus with 9 samples.

Results

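Short terminal exons are last exons under 500 bases long. They were chosen from a deposited table of exon levels in RPKM (reads per kilobase of exon, scaled to the size of the library). For each gene name with at least 3 distinct exon rows, the most 3′ row was taken, and it was kept if it was shorter than 500 bases and above 0 in at least 3 of the 6 pull-down libraries. This gave 947 exons, out of 14826 last rows and 210966 distinct exon rows. Of the last rows, 3430 were under 500 bases. The exons were 23 to 499 bases long, with a median of 324. The levels that chose them treated both antibodies alike, so that being detected in the pull-downs is the choice itself and not a result.

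The libraries came from whole healthy liver of 8-week-old wild-type C57BL/6 mice. RNA was pulled down under native conditions from a lysate of 1 liver per pull-down, with an antibody against HuR (3 libraries) or with control IgG (3 libraries). The remaining group, Input, is the RNA of the lysate, and its 3 libraries were available only as 1 column of mean values. All groups share strain, age and tissue, and the sample labels differ only in the antibody. The column names add a letter, M for libraries 1 and 2 and F for library 3 of both antibodies, so that library 3 may differ from the others in sex. Where 3 values follow each other, they are those of libraries 1, 2 and 3 of the group, in that order.

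The last exon of a protein-coding gene usually holds the stop codon and the 3′ untranslated region (3′ UTR), and it ends where the RNA is cleaved and given its poly(A) tail. HuR (gene Elavl1) belongs to the ELAV family of RNA-binding proteins. It attaches to stretches rich in U, or in A and U, often in 3′ UTRs, and is known for stabilizing the messages it holds. In liver, hepatocytes make most plasma proteins, and several of those genes end in a short last exon.

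The label was checked against the GENCODE M21 annotation of GRCm38, the assembly also called mm10. Of the 947 exons, 891 had an annotated exon of the same coordinates and 875 were the last exon of an annotated transcript. For 765 the matching transcript was protein-coding. In 690 of these the stop codon lay inside the exon, in 61 the whole exon was 3′ UTR, and in 14 it held no UTR. The median 3′ UTR in these exons was 220 bases. Another listed row of the same gene overlapped 577 of the 947 exons, and 259 overlapped a different annotated gene, so that reads there may belong to either. Only 6 overlapped a gene for a small structural RNA or microRNA. Just inside the length limit were B3gat3 and Cd302, at 499 bases each, and Mgat4b at 498. Just outside were Cops4, Gm12905 and Rnf167 at 500. The levels on both sides were low and overlapped: Cd302 reached 12.96 RPKM in HuR 3, and the highest value of the 3 excluded exons was 1.64 RPKM, that of Cops4 in HuR 3.

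The library sizes behind the RPKM were 15.9 to 28.8 M reads (M, mega), IgG 1 being the smallest. At the median length, 0.5 RPKM stood for 2.57 to 4.67 reads. Reads are not independent molecules, so this covers counting error only. Of 10 hepatocyte markers, 10 were above 0 in every library, with summed gene RPKM of 1012 to 1047 with HuR and 317 to 832 with IgG. Markers of blood cells summed to 68.0 to 176 RPKM with HuR and 98.7 to 236 with IgG, those of Kupffer cells and other macrophages to 18.6 to 33.8 and 7.89 to 35.4, those of sinusoidal endothelium to 9.97 to 26.1 and 2.30 to 10.6, and those of stellate cells and cholangiocytes to 12.8 to 29.4 and 1.81 to 8.52. The library labelled HuR 2 stood apart. Xist, a transcript of the inactive X chromosome, took 182 reads per M there, against 0.0376 in HuR 1 and 8.30 in HuR 3, and 4 genes of the Y chromosome together took 0.267, against 11.8 and 17.1. In IgG 1, 2 and 3 Xist took 0.126, 1.84 and 6.43 and the Y-linked genes 6.12, 1.54 and 0 reads per M. HuR 2 and HuR 3 thus went against their letters M and F, and the deposited fold columns number these libraries in the other order. The names of the RPKM columns were followed. An exchange of both would leave the comparison of HuR with IgG as it is, but would change which library a value without HuR 2 or HuR 3 leaves out, and which libraries share a number.

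Sequences are shown for short terminal exons that rose relative to the rest of their gene in the test described below, to let the letters of such exons be read beside their values. They are read 5′ to 3′ on the gene's strand from GENCODE M21 transcripts (GRCm38). In the first set, capitals mark the first match to any of 4 motifs: TTTTTTT and TTTATTT, and also ATTTA and TATTTAT (T for U). Any TATTTAT also holds ATTTA, and a TTTATTT may.
B2m, chr2:122152697-122152726, plus strand: atatgctatacaATTTAtgcacgcagaaag
H2-K1, chr17:33996047-33996076, minus strand: tgattgatttgTTTTTTTgaagaaataaat
Akr1c6, chr13:4457388-4457417, plus strand: ttattctttagcATTTAtcttttgccagtt
Mug2, chr6:122085836-122085865, plus strand: tttgaaactccTATTTATggagaaggtact
Fgl1, chr8:41191509-41191538, minus strand: attccaaatattATTTAgttgccctcattg

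The exons of Alb, Gc, Wfdc21 and F2, which rose as well, held none of the 4 motifs. For 3 of them the stretch around AATAAA, the usual signal for cleavage and polyadenylation, is shown, with AATAAA in capitals. In Alb, Gc and Wfdc21 it was followed by 16, 23 and 19 bases of the exon. Where these messages end was not mapped.
Alb, chr5:90476569-90476598, plus strand: tgtgctgcaattAATAAAaaatggaaagaa
Gc, chr5:89417533-89417562, minus strand: aaaaaataaataAATAAAttgaaatatggt
Wfdc21, chr11:83752606-83752635, plus strand: gttgtttcttttAATAAAtcattaatgtaa

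Short terminal exons were seen more often and at higher levels with HuR than with IgG. Their median level was 1.496, 0.564 and 2.11 RPKM with HuR. It was 0.447, 0.102 and 0 RPKM with IgG, and 0.291 RPKM in the Input mean. The lowest HuR median, that of HuR 2, was thus above the highest IgG median. This was not particular to short last exons. At 500 to under 3000 bases the medians were 0.578, 0.517 and 0.656 RPKM with HuR and 0.261, 0.0447 and 0 with IgG. At 3000 bases or more they were 0.341, 0.365 and 0.334 RPKM with HuR and 0.155, 0.0248 and 0 with IgG. Of the 947 exons, 844, 722 and 899 were above 0 with HuR, against 677, 555 and 295 with IgG. Of 4950 last exons of 500 to under 3000 bases, 4344, 4120 and 4712 were above 0 with HuR. With IgG the counts were 4041, 3169 and 1797. All 6 libraries held reads for 167 of the 947. Another 109 were above 0 in all HuR libraries and at 0 in all IgG libraries, and 1 showed the opposite pattern. Such exons entered the set through 1 antibody alone, so that both counts are a description. Together the 947 exons took 2.22%, 0.705% and 2.67% of the listed reads with HuR, against 0.201%, 0.0784% and 0.162% with IgG and 0.151% in the Input mean. The major urinary protein genes and Alb made up much of this. Without them and Gm21320, a gene name in the same cluster, the shares were 0.694%, 0.541% and 0.573% with HuR and 0.145%, 0.0542% and 0.106% with IgG, again with no overlap between the groups.

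All 3 HuR libraries lay above all 3 IgG libraries in 314 of the 947 exons (33.2%), against 19.9% of all distinct exons above 0 in at least 3 pull-downs. The reverse held for 5. The 314 hold the exons seen only with HuR, which had to lie above IgG. All 3 HuR libraries lay above the Input mean in 405 exons (42.8%), against 32.4% of all such exons. Among last exons of 500 to under 3000 bases the 2 shares were 34.1% and 53.3%, and among those of 3000 bases or more 37.8% and 64.0%. The short exons were thus close to the longer ones against IgG and had a smaller share above Input.

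The level of each exon was compared between HuR and IgG by limma on log2(RPKM + 0.5), for exons at 0.5 RPKM or more in at least 3 pull-downs. The p-values measure the spread between these libraries. Of 15298 exons tested, 0 passed an adjusted p of 0.05 (a background of 0%), and so did 0 of the 527 short terminal exons tested. Before adjustment, 187 of the 527 (35.5%) were higher with HuR at a p under 0.05 and 1 was lower, against a background of 17.6% higher and 3.33% lower. Longer last exons were close to the short ones, with 33.3% higher at 500 to under 3000 bases and 31.3% at 3000 bases or more. The lowest adjusted p was 0.154. The median log2 difference was 1.68 over the 527 exons and 0.84 over all exons tested, so that a large part of it was shared by exons of every kind. With libraries centred at their medians, the 2 values were 0.52 and −0.32. Of the 527, 70 reached the minimum only through the HuR libraries, so this median is a description. In the authors' deposited table, the q-value for HuR against IgG was under 0.05 for 0 exons, and its lowest value over the short terminal exons was 0.110.

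The clearest pattern lay within genes. In the genes tested below, the last exon typically stood well above the exons upstream of it in HuR 1 and HuR 3. In HuR 2 it did so less, and in the IgG libraries and the Input mean it typically stood below them. For each gene, the terminal exon was set over the rest of the gene, which is the level over all rows that do not overlap it. Where both reached 0.5 RPKM in at least 3 pull-downs, which held for 279 short terminal exons, the median ratio of terminal exon to rest was 3.81, 1.49 and 6.25 with HuR. It was 0.884, 0.760 and 0.909 with IgG, and 0.759 in the Input mean. The terminal exon took a median of 48.8%, 22.2% and 65.1% of the gene's exon reads with HuR, against 13.8%, 9.80% and 2.65% with IgG and 12.95% in the Input mean. Its median share of the gene's exon length was 16.1%. Here too HuR 2 was the lowest of the HuR libraries and stood above all IgG libraries, with 119 of the 279 exons more than 2-fold above the rest of the gene and 64 more than 2-fold below.

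limma on the log2 ratio, fitted over the 1259 last exons of any length that could be tested, called 137 higher with HuR (10.9%) and 0 lower. Of the 279 short terminal exons, it called 49 higher (17.6%) and 0 lower. In 26 of the 279, 7 of them called, the terminal exon reached the minimum only through the HuR libraries and so could hardly come out lower, so that these counts are a description. Genes whose rest reached the minimum only through the IgG libraries, which could hardly come out lower either, were not counted. The log2 changes of the 49 ran from 2.75 to 7.56. In 46 of them the ratios of the groups did not overlap. Over all 279 this held for 102 exons with HuR higher and for 2 with HuR lower. The 49 were picked by a test on the same ratios, so the 46 are a description. In 47 of the 49 the terminal exon was above the rest of the gene in all 3 HuR libraries. In 38 the mean level of the rest of the gene was lower with HuR than with IgG, so that the change came from both sides of the ratio. The median log2 change was 2.03 over the 279 exons and 1.56 over all 1259, and 248 of the 279 were positive. With libraries centred at their medians these values were 0.58, 0.12 and 187, and with quantile normalization 0.52, −0.04 and 174. Without centring, the change was also positive in 671 of 772 last exons of 500 to under 3000 bases and in 168 of 208 longer ones. A large part of the shift was thus common to last exons of every length.

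**Figure D1:**
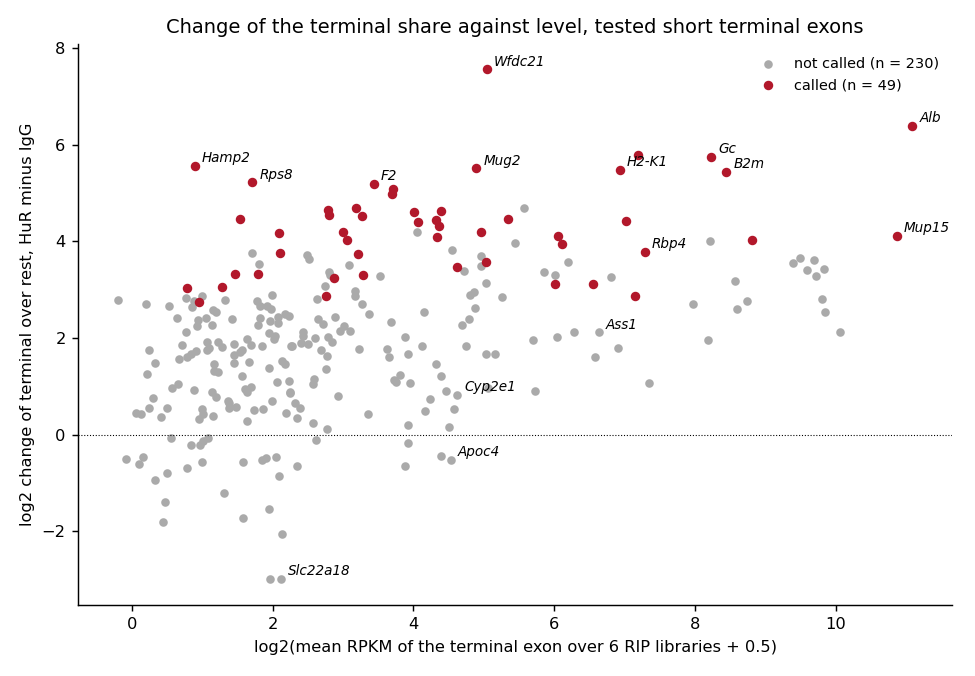
Each point is 1 of the 279 tested short terminal exons. The x axis is the log2 of its mean RPKM over the 6 pull-downs plus 0.5, and the y axis the log2 change of the terminal exon over the rest of the gene, HuR minus IgG. The 49 red points passed an adjusted p of 0.05 and all lie above 0, and the largest changes are those of Wfdc21 and Alb.

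These calls rest on the whole set of libraries and on a shift of the ratio shared by last exons. Centring sets each library at its median log2 ratio and so takes that shared shift out. Without HuR 1, HuR 3 or IgG 2, limma called 0 of the 279 exons (92, 74 and 87 higher at an unadjusted p under 0.05), without IgG 3 it called 2, and without HuR 2 it called 115. With libraries centred at their medians it called 0 of all 1259 last exons, and at an unadjusted p under 0.05 it found 124 higher and 86 lower where the uncentred values gave 427 and 4 (45 and 11 in place of 120 and 1 among the 279). The uncentred counts were 33.9% higher and 0.318% lower over all last exons tested.

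In the HuR libraries, median levels were low at the upstream rows and higher at the terminal row. For the same 279 genes, the nearest upstream row that does not overlap the terminal exon had a median level of 0, 0.264 and 0.178 RPKM with HuR. In IgG 1, 2 and 3 it was 1.93, 0.307 and 0 RPKM, and in the Input mean 1.56. The terminal exons of these genes had medians of 7.84, 3.91 and 10.3 RPKM with HuR, against 3.17, 1.06 and 0.0626 with IgG. All HuR libraries lay above all IgG libraries in 117 of the 279 terminal rows (41.9%), in 15 of the nearest upstream rows (5.38%) and in 9 of the most 5′ rows (3.23%). These shares are not on equal terms. Every terminal row had to reach the RPKM minimum, and 26 did so only through HuR and thus had to lie above IgG. A single upstream row had no minimum, and rows at 0 can hardly separate the groups. Upstream rows were shorter, with median lengths of 140 bases for the nearest and 206 for the most 5′, against 309 for the terminal row.

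**Figure D2:**
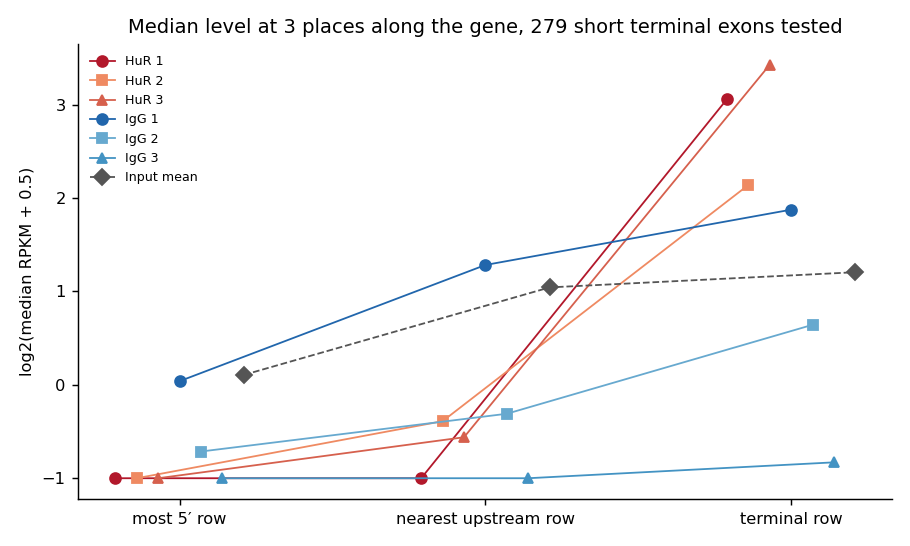
The median level, as log2 of the median RPKM plus 0.5, at the most 5′ row, the nearest upstream row and the terminal row of the 279 genes, with 1 line per library. The 3 HuR lines lie at or below the IgG 1 and Input lines at the upstream rows and above all other lines at the terminal row.

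Alb, the gene of serum albumin, shows this most plainly. Its last exon (143 bases, all 3′ UTR, chromosome 5) reached 5341, 1313 and 6057 RPKM with HuR, against 75.4, 17.8 and 236 RPKM with IgG and 212 RPKM in the Input mean. The groups were far apart. The rest of the gene was at 111, 386 and 78.5 RPKM with HuR and 305, 142 and 352 RPKM with IgG, where the groups overlapped. In every HuR library the last row lay above all 18 upstream rows, the highest of which were at 198, 800 and 159 RPKM with HuR. The terminal exon over the rest of the gene rose by a log2 change of 6.39 (SE 1.20, adjusted p = 0.0327).

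Gc, the vitamin D binding protein, and B2m, the light chain of MHC class I molecules, had the same shape. In Gc, the last exon (167 bases, all 3′ UTR) was at 797, 234 and 732 RPKM with HuR and at 22.3, 13.3 and 6.44 RPKM with IgG. Its rest of the gene was at 23.7, 64.2 and 14.01 RPKM with HuR and 60.1, 22.7 and 39.1 RPKM with IgG. Only the last exon separated the groups, and the log2 change of the ratio was 5.75 (SE 1.09, adjusted p = 0.0327). In B2m, the last exon (433 bases, all 3′ UTR) was at 901, 182 and 877 RPKM with HuR and 43.3, 8.23 and 73.1 RPKM with IgG. The rest of B2m was at 0.704, 8.63 and 6.18 RPKM with HuR and 16.8, 3.95 and 14.5 RPKM with IgG. The ratio of B2m rose by 5.43 (SE 1.32, adjusted p = 0.0332). With 3 upstream rows, B2m is the simplest of these genes.

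**Figure D3:**
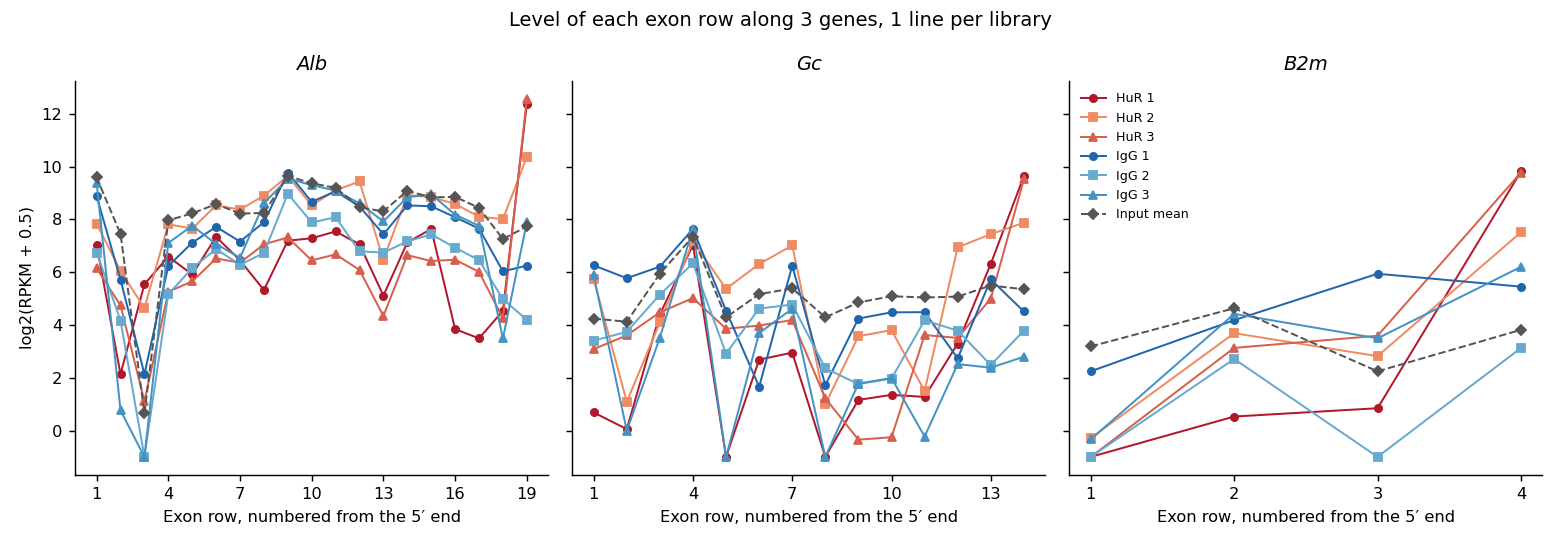
Level of every exon row of Alb, Gc and B2m, as log2(RPKM + 0.5), in order from the 5′ end, with 1 line per library. At the last row the 3 HuR lines lie above the 3 IgG lines and the Input mean, and at most upstream rows they do not.

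The members are described by gene group below. In each case the background is the 10.9% called over last exons of every length and the 17.6% called over the short ones. For positive changes of the ratio it is 248 of the 279 short ones tested, and for the median log2 change 2.03. Plasma carriers and apolipoproteins were the group with the largest number of calls. Of 26 such genes with a last row, 17 had it under 500 bases and 16 of those were members. Of the 15 that could be tested, 7 rose relative to the rest of their gene and 0 fell: Alb, Gc, Rbp4, Hpx, Apoa2, Apom and Serpina6. The median log2 change of the 15 was 3.36. Rbp4, the carrier of retinol, was at 321, 112 and 405 RPKM with HuR and at 60.0, 8.54 and 26.9 RPKM with IgG (290 bases, chromosome 19). These ranges did not overlap, and the ratio rose by 3.79 (SE 1.02, adjusted p = 0.0385). Apoc4, a minor apolipoprotein, went the other way in level: its exon was at 12.7, 3.14 and 33.6 RPKM with HuR and 34.5, 6.20 and 45.2 RPKM with IgG. The Apoc4 groups overlapped, and its log2 difference in exon level was −0.90 (SE 1.19, adjusted p = 0.662).

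Among 13 members that encode serpins and clotting factors, 11 could be tested and 4 rose: F2, Serpina1a, Serpina1c and Serpina1d. The median log2 change of the 11 was 2.13. F2, prothrombin, was at 20.6, 16.0 and 22.1 RPKM with HuR, and at 2.23, 1.03 and 0 RPKM with IgG. The rest of F2 lay at 3.58, 6.09 and 1.70 RPKM with HuR and at 11.8, 5.12 and 10.6 RPKM with IgG. Its last exon was thus above IgG in every HuR library while the rest overlapped, and the ratio rose by 5.19 (SE 0.95, adjusted p = 0.0327). Serpina1c and Serpina1d, copies of the alpha-1 antitrypsin gene, rose by 2.88 (SE 0.85, adjusted p = 0.0493) and 3.95 (SE 0.95, adjusted p = 0.0332). These copies are nearly identical, so that reads may be shared between them and their values are uncertain, and the adjusted p of Serpina1c was 0.0502 without rows over small RNA genes, with the same log2 change.

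Other secreted proteins were among the largest changes. Wfdc21, a gene of the whey acidic protein family, had the largest. Its 149-base exon was at 62.5, 5.86 and 119 RPKM with HuR and at 6.35, 0.755 and 0 RPKM with IgG. HuR 2 lay just below IgG 1 there. The rest of Wfdc21 was at 1.05, 0.133 and 2.09 RPKM with HuR and 5.31, 3.82 and 59.9 RPKM with IgG, with no overlap, and the ratio rose by 7.56 (SE 1.51, adjusted p = 0.0327). Mug2, a protease inhibitor of the alpha-2-macroglobulin family, was at 90.5, 4.81 and 79.8 RPKM with HuR and at 0 in all 3 IgG libraries. Its rest was at 6.82, 4.76 and 1.85 RPKM with HuR and 5.17, 1.19 and 2.36 RPKM with IgG, so only the last exon, which carries the TATTTAT shown above, separated the groups (log2 change of the ratio 5.51, SE 1.17, adjusted p = 0.0327). It reached the minimum only through the HuR libraries. Fgl1, a fibrinogen-like protein of hepatocytes, was at 30.1, 5.38 and 39.1 RPKM with HuR and 0, 0.456 and 0 RPKM with IgG, and its ratio rose by 4.98 (SE 1.24, adjusted p = 0.0333), with the minimum again reached only through HuR.

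Complement and acute phase genes had 1 call each. Of 9 complement members, 8 could be tested and 1 rose, Cfb. C3, the central complement protein, was at 107, 136 and 69.4 RPKM with HuR and at 41.8, 11.2 and 26.2 RPKM with IgG. Its groups did not overlap, but the log2 change of the ratio, 2.03 (SE 0.77), had an adjusted p of 0.0941. Of 5 acute phase members, 4 could be tested and 1 rose, Hamp2. Hamp and Hamp2 encode hepcidins, Hamp being the hormone that limits iron release. The last exon of Hamp was at 165, 21.8 and 233 RPKM with HuR and 8.25, 4.03 and 2.59 RPKM with IgG. It lay above IgG in every HuR library (log2 difference in exon level 4.26, SE 1.13, adjusted p = 0.154). Hamp2 had a low last exon, at 1.51, 4.57 and 2.004 RPKM with HuR and 0, 0 and 0.0475 RPKM with IgG. The rest of Hamp2 was at 0.959, 0.386 and 0 RPKM with HuR and 4.83, 1.15 and 41.2 RPKM with IgG, and its ratio rose by 5.56 (SE 1.22, adjusted p = 0.0327), the last exon having reached the minimum only through HuR.

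The heavy chain H2-K1 joined its partner B2m. Its last exon (460 bases, nearly all 3′ UTR, chromosome 17) was at 240, 89.5 and 355 RPKM with HuR and at 25.4, 2.59 and 16.4 RPKM with IgG. The rest was at 2.93, 7.06 and 1.98 RPKM with HuR and 8.07, 5.79 and 18.1 RPKM with IgG. The last exon separated the groups and the ratio rose by 5.48 (SE 1.17, adjusted p = 0.0327). MHC class I genes are close copies of each other, so that reads may be split between them.

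The major urinary proteins, small pheromone carriers secreted by the liver, were, with Alb, the exons of highest level. All 21 genes of the list with a last row were members. Their median last exon was at 879, 48.7 and 1556 RPKM with HuR, against 45.9, 14.2 and 37.3 RPKM with IgG and 40.6 RPKM in the Input mean. HuR 1 and HuR 3 were far above the IgG libraries, and HuR 2, the library with high Xist and few reads of Y-linked genes, was close to IgG 1. Whether these 2 facts are linked was not tested. Of 18 tested members, 17 had a positive log2 change and 2 rose, Mup13 and Mup15. The median of the 18 was 2.99. Mup15 was at 3781, 93.7 and 6996 RPKM with HuR and 163, 62.3 and 110 RPKM with IgG, and its ratio rose by 4.11 (SE 1.21, adjusted p = 0.0493), and without rows over small RNA genes its log2 change was the same and its adjusted p 0.0507. Mup1 was at 1356, 57.5 and 2763 RPKM with HuR and 48.6, 17.3 and 69.2 RPKM with IgG (log2 change of the ratio 3.65, SE 1.12, adjusted p = 0.0543). In both genes HuR 2 lay below the highest IgG library. The copies are nearly identical, so that their values are not independent. Without this cluster the median log2 change of the tested short terminal exons was 1.92, a choice made after seeing the data.

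Enzymes of metabolism had scattered calls. Of 15 cytochrome P450 members, 8 could be tested and 2 rose, Cyp2a4 and Cyp2c54. Cyp2c54, a drug and fatty acid oxidase, was at 52.3, 10.5 and 32.6 RPKM with HuR and at 2.11, 0 and 0 RPKM with IgG. These levels did not overlap, but the ratios to the rest did, and the ratio rose by 4.40 (SE 1.26, adjusted p = 0.0450). Cyp2a4, a steroid hydroxylase, was at 1.36, 103 and 12.9 RPKM with HuR and 3.27, 0.389 and 0.180 RPKM with IgG. It was the reverse of the urinary proteins, with HuR 2 the highest and HuR 1 inside the IgG range (log2 change of the ratio 4.31, SE 1.25, adjusted p = 0.0470). Cyp2f2 was at 99.7, 4.78 and 136 RPKM with HuR and 2.69, 1.096 and 15.0 RPKM with IgG, and its change of 3.96 (SE 1.45) had an adjusted p of 0.0851. Cyp2e1, the ethanol-oxidizing P450 and a hepatocyte marker, showed little difference in level, with 39.7, 20.5 and 22.3 RPKM with HuR and 33.8, 11.7 and 16.6 RPKM with IgG. Its log2 difference in exon level was 0.48 (SE 0.93, adjusted p = 0.767), and it turned negative with libraries centred or quantile normalized.

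Of 8 members in fatty acid oxidation and ketogenesis, 4 could be tested and 1 rose. This was Acaa1b, a peroxisomal thiolase, at 90.0, 48.3 and 40.1 RPKM with HuR and at 9.27, 3.45 and 1.95 RPKM with IgG, with a log2 change of the ratio of 3.57 (SE 0.86, adjusted p = 0.0332). Etfa, a subunit of the electron transfer flavoprotein, was at 108, 15.8 and 92.5 RPKM with HuR and 0, 1.32 and 0 RPKM with IgG. Its groups were far apart, but its upstream exons were too low for the ratio test, and the log2 difference in exon level was 6.15 (SE 1.16, adjusted p = 0.154). Akr1c6, a hydroxysteroid dehydrogenase, was at 26.6, 6.26 and 40.0 RPKM with HuR and 1.49, 1.57 and 0 RPKM with IgG. Its rest was at 0.231, 0.699 and 0.431 RPKM with HuR and 5.25, 1.38 and 0.307 RPKM with IgG, and the ratio rose by 5.08 (SE 1.03, adjusted p = 0.0327).

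Of 10 members among conjugation enzymes, 4 could be tested and 1 rose, the sulfotransferase Sult1a1. Its exon was at 0.945, 7.65 and 3.38 RPKM with HuR and at 0.0532, 0.415 and 1.86 RPKM with IgG, which overlapped. The rest of Sult1a1 was at 0, 0 and 0.0128 RPKM with HuR and 1.39, 1.61 and 8.499 RPKM with IgG. This rest reached the minimum only through the IgG libraries, so that the ratio could hardly come out lower. The rise of 4.46 (SE 0.88, adjusted p = 0.0327) came mostly from the upstream exons and is a description. Gstt1, a glutathione transferase, was at 49.5, 14.4 and 105 RPKM with HuR and 6.89, 1.92 and 5.64 RPKM with IgG, with no overlap (log2 difference in exon level 3.16, SE 1.07, adjusted p = 0.160).

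The urea cycle and amino acid breakdown had 8 members, all tested, with 8 positive changes, 0 calls and a median of 1.61. Ass1, argininosuccinate synthase, had even values with HuR, at 162, 171 and 195 RPKM with HuR and at 33.6, 8.72 and 22.2 RPKM with IgG. The groups did not overlap (log2 difference in exon level 3.19, SE 0.92, adjusted p = 0.154). Gnmt, the methyltransferase of glycine, was at 46.4, 11.8 and 53.4 RPKM with HuR and 24.4, 8.89 and 10.02 RPKM with IgG, which overlapped. The log2 change of its ratio was 3.39 (SE 1.07, adjusted p = 0.0584). Cholesterol synthesis had 3 members, 2 of them tested, and 0 calls. Antioxidant and iron-storage genes had 6 members, 5 of them tested, and 0 calls, with a median of 0.37.

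Ribosomal proteins and the respiratory chain are built from many small genes, and they held most members of any list. Of 38 ribosomal protein members, 14 could be tested and 4 rose, among them Rpl4 and Rpl8. Their median level was 2.20, 0.674 and 2.31 RPKM with HuR and 0.337, 0 and 0 RPKM with IgG. Rpl8 was at 23.4, 15.5 and 43.7 RPKM with HuR and 24.4, 11.4 and 0 RPKM with IgG. Its last exon overlapped between the groups, its rest was at 0.0662, 0.632 and 1.82 RPKM with HuR and 6.52, 4.14 and 1.49 RPKM with IgG, and the ratio rose by 4.09 (SE 1.15, adjusted p = 0.0440).

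Rpl4 hosts small nucleolar RNAs, and rows of its upstream exons overlap those genes. The last exon of Rpl4 was at 23.8, 19.7 and 26.5 RPKM with HuR and at 7.03, 1.06 and 15.4 RPKM with IgG. The rest of Rpl4 was at 5.76, 3.21 and 2.90 RPKM with HuR and 96.1, 9.61 and 16.3 RPKM with IgG. The ratio rose by 4.62 (SE 0.97, adjusted p = 0.0327), and with rows over small RNA genes left out it was 2.97 (adjusted p = 0.0523).

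Of 41 respiratory chain members, 14 could be tested, 14 changes were positive and 1 passed the threshold, that of Cox6a1. The median level was 4.25, 0.485 and 5.09 RPKM with HuR and 0.599, 0.114 and 0 RPKM with IgG, so that HuR 2 lay inside the IgG range. Atp5e, a subunit of ATP synthase whose last exon is all 3′ UTR, was at 24.0, 17.1 and 27.3 RPKM with HuR and 2.10, 2.13 and 0 RPKM with IgG. Its groups were far apart (log2 difference in exon level 3.93, SE 1.08, adjusted p = 0.154). Ndufb7, of complex I, was at 7.36, 60.3 and 9.39 RPKM with HuR and 10.4, 0.387 and 0 RPKM with IgG, with IgG 1 above HuR 1 and HuR 3 (3.31, SE 1.42, adjusted p = 0.222). Uqcrb, a subunit of complex III and a known HuR target, was at 9.30, 3.26 and 21.9 RPKM with HuR and 0, 0 and 1.65 RPKM with IgG, without overlap (3.53, SE 1.14, adjusted p = 0.154). Of 26 published HuR targets with a last row, only 2, Uqcrb and Ndufb6, ended in a short one.

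Proteasome subunits had 20 members, 1 of them tested for the ratio, and 0 calls. Psma4, a subunit of its core, was at 2.94, 25.8 and 5.25 RPKM with HuR and at 0.319, 0.379 and 0 RPKM with IgG. The groups did not overlap (log2 difference in exon level 3.50, SE 1.09, adjusted p = 0.154). Translation factors had 9 members, 2 of them tested, and 0 calls. RNA-binding and splicing factors had 4 members, 3 of them tested, and 0 calls, with a median of −0.07. Among these Pabpc1, the poly(A)-binding protein, was at 7.66, 4.74 and 18.1 RPKM with HuR and 1.29, 1.24 and 0 RPKM with IgG. Its level separated the groups (log2 difference in exon level 2.997, SE 1.08, adjusted p = 0.168), and its rest of the gene did so too, at 3.59, 4.60 and 3.16 RPKM with HuR and 1.497, 0.645 and 0.215 RPKM with IgG.

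Rarres2, which encodes the secreted chemoattractant chemerin, was among the exons with the smallest p in the test of level. Its 110-base exon was at 20.9, 14.01 and 34.2 RPKM with HuR and at 0.665, 0.396 and 0.366 RPKM with IgG. The groups were far apart (log2 difference 4.51, SE 0.99, adjusted p = 0.154).

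No short terminal exon was called lower with HuR, and those with the lowest values are described here. The host genes of small nucleolar RNAs had 4 members, with a median level of 2.80, 0.651 and 5.01 RPKM with HuR and 30.2, 3.002 and 5.13 RPKM with IgG. The last exon of Snhg3, which overlaps Snora73a, was at 3.10, 1.22 and 4.98 RPKM with HuR and 100, 25.7 and 8.11 RPKM with IgG. The groups did not overlap (log2 difference in exon level −3.13, SE 1.16, adjusted p = 0.173), and Snhg3 was the only tested short terminal exon lower at an unadjusted p under 0.05. Snhg5, whose last exon overlaps Snord50a, was at 2.51, 0.330 and 3.72 RPKM with HuR and 26.6, 2.61 and 2.16 RPKM with IgG (−1.47, SE 1.25, adjusted p = 0.496). The lowest ratio among named members was that of Slc22a18, a membrane transporter, whose last exon was at 0.201, 0 and 1.88 RPKM with HuR and 0, 1.501 and 19.3 RPKM with IgG. IgG 3 was the high library in that exon, and the change of −2.98 (SE 1.66) had an adjusted p of 0.220.

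Other cell types gave few members. Blood cell markers had 5, of which 4 could be tested, with 4 positive changes and 0 calls. The last exon of Hbb-bs, a beta globin of red cells, was at 29.0, 10.3 and 84.5 RPKM with HuR and at 37.7, 19.0 and 2.73 RPKM with IgG, which overlapped. The rest was at 24.7, 10.2 and 4.74 RPKM with HuR and 97.1, 44.97 and 61.7 RPKM with IgG, and the log2 change of the ratio was 3.70 (SE 1.23, adjusted p = 0.0669). The Kupffer cell list had 1 member, Cd74, the sinusoidal endothelial list 2 and the stellate and cholangiocyte list 1, with 0 calls. Of the hepatocyte markers, 3 were members, and 2 of them, Alb and Serpina1c, rose. In bulk tissue, fewer cells of a type and less RNA per cell cannot be told apart.

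**Figure D4:**
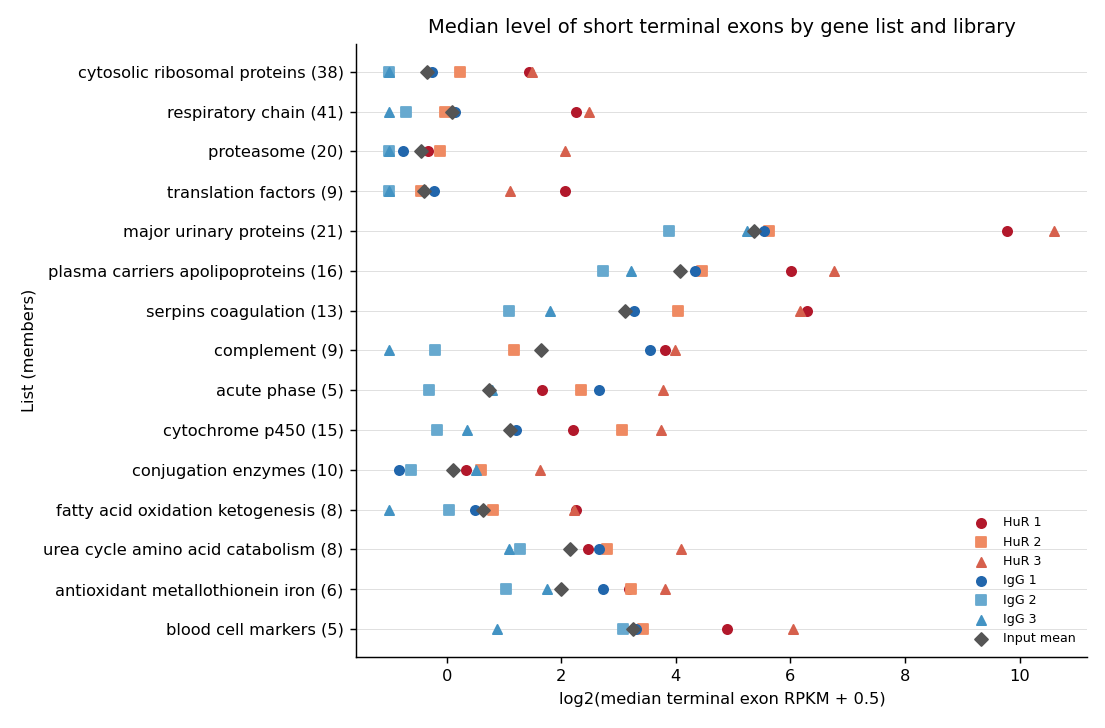
Median level of the short terminal exons of each gene list with at least 5 members, as log2(median RPKM + 0.5), with 1 symbol per library and the number of members in parentheses. HuR 1 and HuR 3 lie to the right of the IgG libraries for the urinary proteins, the plasma carriers and the serpins, and HuR 2 lies close to IgG 1 in several lists.

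The HuR libraries resembled each other in how the terminal exon stood over the rest from gene to gene. Over the 279 tested exons, Spearman's rho of the log2 ratio was 0.63 between HuR 1 and HuR 3, 0.45 between HuR 1 and HuR 2 and 0.53 between HuR 2 and HuR 3. Between IgG libraries it was 0.28 to 0.42, and between a HuR and an IgG library 0.23 to 0.33. The Input mean resembled IgG 1 (0.53) and IgG 2 (0.51) more than IgG 3 (0.36) or any HuR library (0.23 to 0.28). These values are across exons, which share their libraries, and are given as a description. Over the same exons, rho between the log2 change of the ratio and the mean level was 0.46, that with the exon's length −0.17 and that with its percentage of T (264 exons with sequence) 0.17. Levels and changes share the same libraries.

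Whether short last exons differ from longer ones depends on how the exons are chosen. Among last exons that passed the RPKM minimum in the pull-downs, 17.6% of the short ones were called, 77 of 772 (9.97%) of those with 500 to under 3000 bases and 11 of 208 (5.29%) of those with 3000 bases or more. The medians of the log2 change were 2.03, 1.56 and 0.93 in the same order. The difference between classes was not tested. In an alternative chosen after seeing the data, last exons were taken by their Input mean alone, at 0.5 RPKM or more, whatever their pull-down values. This gave 467 short ones, 102 of which are not among the 947. All HuR libraries lay above all IgG libraries in 137 of the 467 (29.3%) and below in 1, against 5.43% of all 27692 exons chosen this way. The share was 54.9% of 763 last exons of 500 to under 3000 bases and 73.5% of 102 with 3000 bases or more. The median log2 differences were 1.38, 2.02 and 2.01. For the 467, the median log2 ratio of terminal exon to rest was 1.53, 0.14 and 2.31 with HuR. It was 0 in each IgG library and 0.46 in the Input mean, where a choice on Input favours a high value. In order of length class, the ratio of terminal exon to rest lay above IgG without overlap in 25.9%, 46.9% and 48.0%. Chosen on Input, short last exons thus exceeded exons at large and stood below longer last exons. By levels without overlap the short ones also came last among exons chosen on the pull-downs, by a smaller margin (33.2%, 34.1% and 37.8%). The calls and medians of the ratio had the opposite order there, and so had the limma test of level. In that test 35.5%, 33.3% and 31.3% were higher at an unadjusted p under 0.05. Its median log2 differences were 1.68, 1.60 and 1.37.

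**Figure D5:**
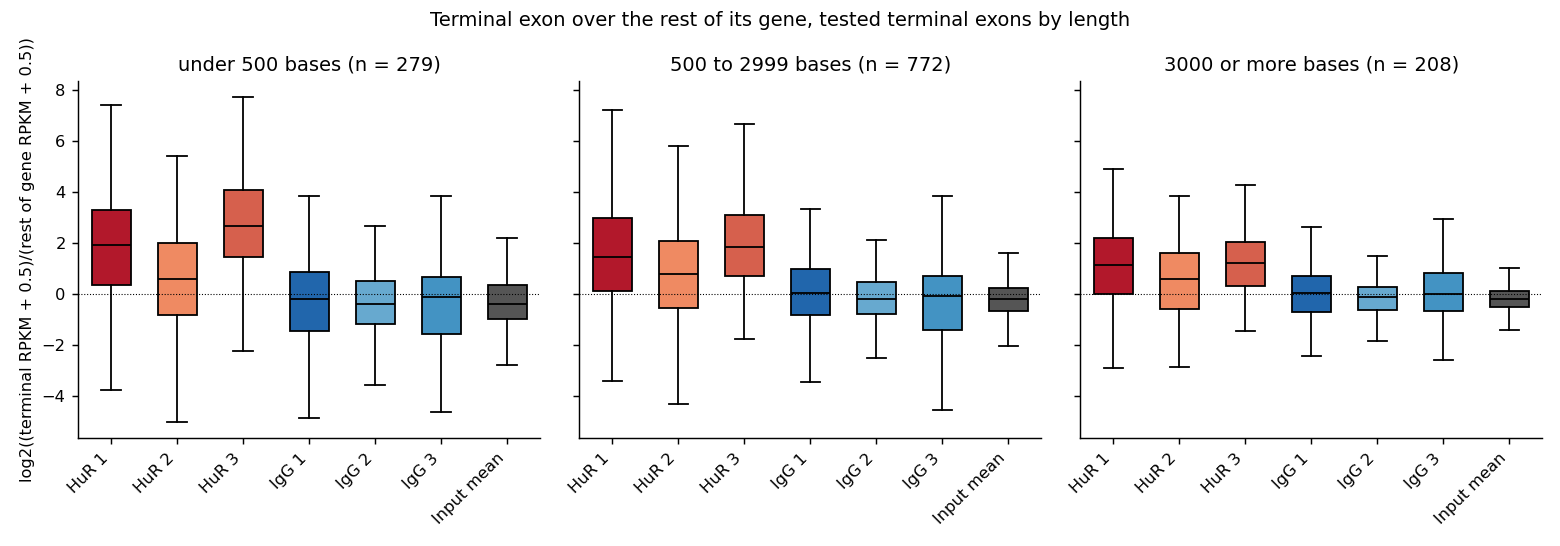
Log2 of the terminal exon over the rest of its gene (RPKM + 0.5 in both) in each library, for tested last exons in 3 length classes. Boxes show the quartiles with the median as a line, and whiskers reach the farthest value within 1.5 times the box height. For exons under 500 bases the medians are 1.93, 0.58 and 2.64 with HuR and −0.18, −0.40 and −0.14 with IgG.

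Most short terminal exons held none of the 4 motifs. At least 1 of the 4 motifs was found on the gene strand in 33.8% of the 891 members with sequence, and in 24.6% of 2389 last rows under 500 bases that are not members, which were shorter (median 242 bases, against 322). Among last exons of protein-coding transcripts, with median lengths of 330 and 317 bases, the shares were 35.1% for members and 34.9% for the others, in that order. Longer last exons held a motif far more often, in 83.4% of those with 500 to under 3000 bases and 99.1% of those with 3000 bases or more, which are also many times longer. Per kilobase the classes were closer, with 1.05 matches to ATTTA in members against 1.52 and 1.74 in the longer classes, and 0.343 to TTTATTT against 0.435 and 0.478. By motif, ATTTA was in 25.7% of members, TTTATTT in 9.43%, TTTTTTT in 8.75% and TATTTAT in 5.05%. AATAAA stood in the last 50 bases of 66.7% of members and of 36.7% of the other short rows. Among last exons of protein-coding transcripts the shares were closer, at 70.9% and 63.3%, and in the longer classes they were 64.0% and 66.96%.

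Members with and without a motif were both among the calls. Of the tested members with sequence, 19 of 75 with any of the 4 motifs were called (25.3%) and 28 of 189 without one (14.8%). Those with a motif were longer, with a median of 386 bases against 270, and the difference was not tested. For ATTTA the counts were 16 of 64 with it and 31 of 200 without it, and for TTTTTTT 2 of 14 and 45 of 250. Of 47 called members with sequence, 28 thus held none of the 4 motifs, among them Alb, Gc, Wfdc21 and F2. Exons that are 3′ UTR throughout were called in 5 of 29 tested cases, with a median log2 change of 2.77, and exons with the stop codon inside in 41 of 221, with a median of 2.03. A match is only a description of the letters in the exon, and the motifs were not searched elsewhere in the message.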

How the data were processed

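Per the submitters' processing notes, Bowtie2, featureCounts and the mm10 genome were used, and their versions were not stated there. The authors deposited 1 table of RPKM per exon, with log2 fold columns, p-values and q-values whose test is not stated. The deposited table lacks the decimal mark in values from 1 upwards. The mark was put back by trying its positions against the 6 deposited log2 fold columns, and 138826 of 138826 distinct lines of values matched within 5e-06. Input is the authors' mean and entered no test. Values of identical exon rows (reads are split between lines) were added. The rest of a gene is its non-overlapping rows, as reads over merged length. limma 3.58.1 (R 4.3.3; trend and robust moderation, two-sided, Benjamini-Hochberg over all features tested) compared 3 HuR with 3 IgG libraries, and was tested on simulated data. A pseudocount of 0.5 RPKM understates the change of low exons. The fits used no counts.

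The members, gene lists and tests were chosen with earlier results of these data known. Named genes are, leaving out predicted, Rik, pseudogene and small RNA names, up to 10 of the largest called changes per direction without overlap and with a higher group of 5 RPKM or more (where fewer than 5 were called, the 5 of smallest p), the 10 members of highest mean level, and up to 4 of each list by level. Not all of them are described, and some results are not reported here. Alternatives were other pseudocounts, minimums, scalings, moderation and row handling, a replicate block, and each library left out. The depth of 15.9 to 28.8 M reads per library bears on counting error only. The precision of the comparison follows from the spread between libraries. Python 3.11.15, numpy 2.4.6, pandas 2.3.3 and matplotlib 3.10.9 did the rest.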

Additional observations from a re-analysis of the deposited data

How the results depend on the processing

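In the test of exon level, 0 of 527 short terminal exons and 0 of all exons were called under every alternative run. In the test of the terminal exon over the rest of the gene, 0 were lower under every alternative. The 49 members and 137 last exons called higher became 17 and 35 with a pseudocount of 0.1, 27 and 64 with the replicate block, and 0 and 0 with no RPKM minimum (215 and 1128 at an unadjusted p under 0.05 in limma), with libraries centred at their medians (45 and 124), with quantile normalization (42 and 105) and without HuR 3 and IgG 1 (59 and 226). Leaving out 1 library at a time gave 0 to 115 members and 0 to 309 last exons. The cause was not tested. Of the 17, 16 were among the 49, and of the 27, 23 were. Libraries with the same number share that number and the M or F in their column names, and nothing says that they share a mouse. The correlations of their deviations were 0.0203, 0.0319 and 0.0140, and those of differently numbered libraries ran from −0.0368 to 0.0105. The same-numbered values were thus the highest, but the numbers of HuR 2 and HuR 3 are uncertain. All values were small, so the libraries were not treated as pairs. The block ended the calls of Rbp4, Serpina1c, Fgl1, Acaa1b, Cyp2a4, Cyp2c54 and Rpl8 (adjusted p 0.0509 to 0.0854) with the log2 changes as they were. The exon-level difference of Cyp2e1 turned to −0.69 with libraries centred and −0.10 with quantile normalization. Other length and detection limits kept the median log2 change of members between 1.69 and 1.97 for level and between 1.93 and 2.37 for the ratio. Without the major urinary protein genes, a choice made after seeing the data, the medians were 1.61 and 1.92. Of the 947 members, 279 reached the minimum in both the exon and the rest of the gene.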
